A study of Mus musculus with 9 samples.

Results

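Of the 3 gates into which CD8-positive T cells of mouse melanomas had been sorted, those compared here differed in both surface features used for the sort. SiaLo_PD1pos cells carried few α2,6-linked sialoglycans and were positive for PD-1. SiaHi_PD1neg cells carried many α2,6-linked sialoglycans and were negative for PD-1. Each of these gates gave 3 RNA-seq libraries, so 6 of the series' 9 libraries were compared, over the 15292 of 56860 genes that passed a filter on low counts. The remaining gate, SiaHi_PD1pos, was high in sialoglycan and positive for PD-1. Its 3 libraries entered the fit for the spread and are given as levels. In every gate the mice were wild type (WT), received no treatment and bore syngeneic tumours that the sample labels call B16-OVA, a B16 melanoma line made to express ovalbumin, and the series' design text B16F10. The sources used here give neither the age of the mice nor the number of animals behind a library. The p-values therefore measure the spread between libraries, which may be technical. Because the gates differed in sialoglycan and in PD-1 together, differences tied to one or the other cannot be told apart in this comparison.

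PD-1 is an inhibitory receptor that T cells put on their surface after antigen has been recognised through the T cell receptor. It stays high on T cells that meet antigen for a long time, as in tumours, where such cells are called exhausted and express the transcription factor TOX. Sialic acids are added to the ends of glycans in the Golgi, and the enzyme ST6GAL1 places them in α2,6 linkage on N-glycans. CD8α, which pairs with CD8β on cytotoxic T cells, is also found without CD8β on some mouse dendritic cells.

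The libraries of the compared gates held 9714020 to 15030442 counts in genes. Libraries of SiaLo_PD1pos resembled each other more than those of SiaHi_PD1neg did. Their biological coefficient of variation, the spread between replicates beyond counting error, was 0.132 in SiaLo_PD1pos and 0.49 in SiaHi_PD1neg. Mitochondrial genes took 3.33 to 4.82% of counts in SiaLo_PD1pos and 6.98 to 10.3% in SiaHi_PD1neg. Levels are given as counts scaled to library size (CPM) after correction by trimmed mean of M values (TMM), which takes the typical gene as unchanged. Log2 fold changes are SiaLo_PD1pos minus SiaHi_PD1neg, each with its standard error (SE). A gene was called at an adjusted p under 0.05 in edgeR's quasi-likelihood F test with Benjamini-Hochberg adjustment over all tested genes, and every adjusted p below is from that test. In 8319 of the tested genes (54.4%) the 3 libraries of one gate did not overlap those of the other.

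The label "CD8+ T cells" was first checked against markers, and the gates differed in how much T cell RNA they held. A T cell core list of 10 genes (the CD3 chains Cd3d, Cd3e, Cd3g and Cd247, the receptor constant regions Trac, Trbc1 and Trbc2, the kinase gene Lck, and Cd8a and Cd8b1) summed to 6370 to 7166 CPM in SiaLo_PD1pos and to 1610 to 1753 CPM in SiaHi_PD1neg, 4.02-fold apart. All 10 were called higher in SiaLo_PD1pos. Markers of plasmacytoid dendritic cells, which make type I interferon, ran the other way. Their 19 genes summed to 987 to 1056 CPM in SiaLo_PD1pos and to 6171 to 10300 CPM in SiaHi_PD1neg, with SiaHi_PD1neg replicate 2 the highest. The 21 conventional dendritic cell markers summed to 326 to 341 CPM in SiaLo_PD1pos against 2958 to 3281 CPM in SiaHi_PD1neg. The 10 MHC class II genes, which present antigen on such cells, summed to 1620 to 2030 CPM against 16440 to 19100 CPM. Groups did not overlap in any of these sums. No gene of these 4 lists was without reads in either gate, but reads of a listed gene need not come from that cell type. Within the plasmacytoid list, Irf8 averaged 376 CPM in SiaLo_PD1pos and Siglech 2.6 CPM. Whether SiaLo_PD1pos held dendritic cell RNA was not tested. In bulk libraries fewer cells of a type and less RNA per cell cannot be told apart, and the part of dendritic cell RNA in the differences below was not tested.

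**Figure D1:**
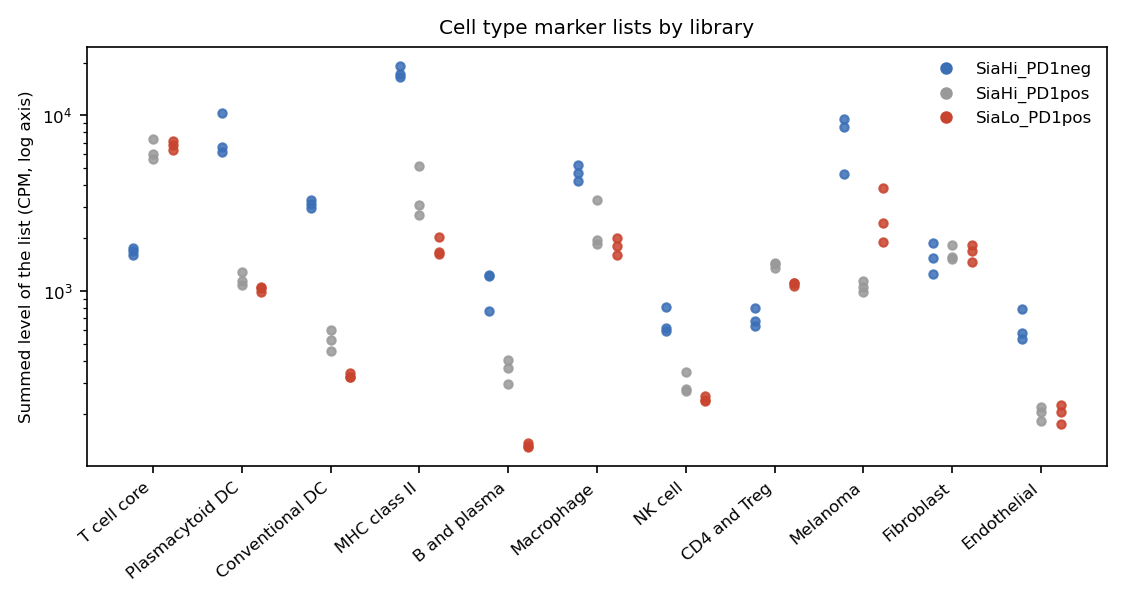
Summed level of each marker list (CPM, log axis) in the 9 libraries, 1 point per library, coloured by gate. The T cell core lay at 1610 to 1753 CPM in SiaHi_PD1neg and at 6370 to 7166 CPM in SiaLo_PD1pos, and the dendritic cell and MHC class II lists lay in the opposite order.

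Pdcd1 and St6gal1 differed in the direction of the PD-1 and sialoglycan gates, and the CD8 genes differed although both gates were sorted as CD8-positive. Pdcd1, which encodes PD-1, stood at 77.5, 36.1 and 51.3 CPM in SiaHi_PD1neg replicates 1, 2 and 3 and at 1105, 1097 and 1163 CPM in SiaLo_PD1pos. The groups lay far apart, 20.4-fold (log2 value 4.35 with an SE of 0.23, adjusted p = 1.73e-08). St6gal1 stood at 103, 105 and 87.0 CPM in SiaHi_PD1neg and at 12.5, 7.08 and 17.5 CPM in SiaLo_PD1pos. It was 8.02-fold lower in SiaLo_PD1pos (SE 0.26 on the log2 scale, adjusted p = 9.29e-07), and the groups did not overlap. Cd8a was 3.77-fold and Cd8b1 3.15-fold higher in SiaLo_PD1pos, less than the 6.81-fold of Cd3e. With the T cell core scaling described next, Cd3e stayed higher, Cd8a did not pass the threshold and Cd8b1 was lower. These genes belong to the core that sets this scaling, so such values only compare each gene with the core sum. Cd4, the co-receptor gene of helper T cells that dendritic cells can also express, stood at 285, 412 and 264 CPM in SiaHi_PD1neg against 6.30, 3.39 and 2.85 CPM in SiaLo_PD1pos (log2 fold change -6.24, SE 0.31, adjusted p = 8.3e-09).

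Across the 15292 tested genes 6029 were called (39.4%), 3136 higher in SiaLo_PD1pos (20.5%) and 2893 lower (18.9%). The split depended on the scale. When library factors came from the T cell core genes, which takes their RNA as equal in every T cell and was not tested, 281 genes were higher (1.84%) and 12531 lower (81.9%), 83.8% in all. With the CD3 chains alone 86.1% were called, 1.5% higher and 84.5% lower. With this T cell core scaling the median of all tested genes moved from 0.01 to -1.99 on the log2 scale, so a gene had to exceed the 4.02-fold of the core to stay higher. All of the 281 were also called higher with TMM scaling. Members of each gene group are therefore counted on both scales, and the T cell core count says how many stood higher relative to T cell RNA. Each count is to be read against the shares of all tested genes on the same scale.

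**Figure D2:**
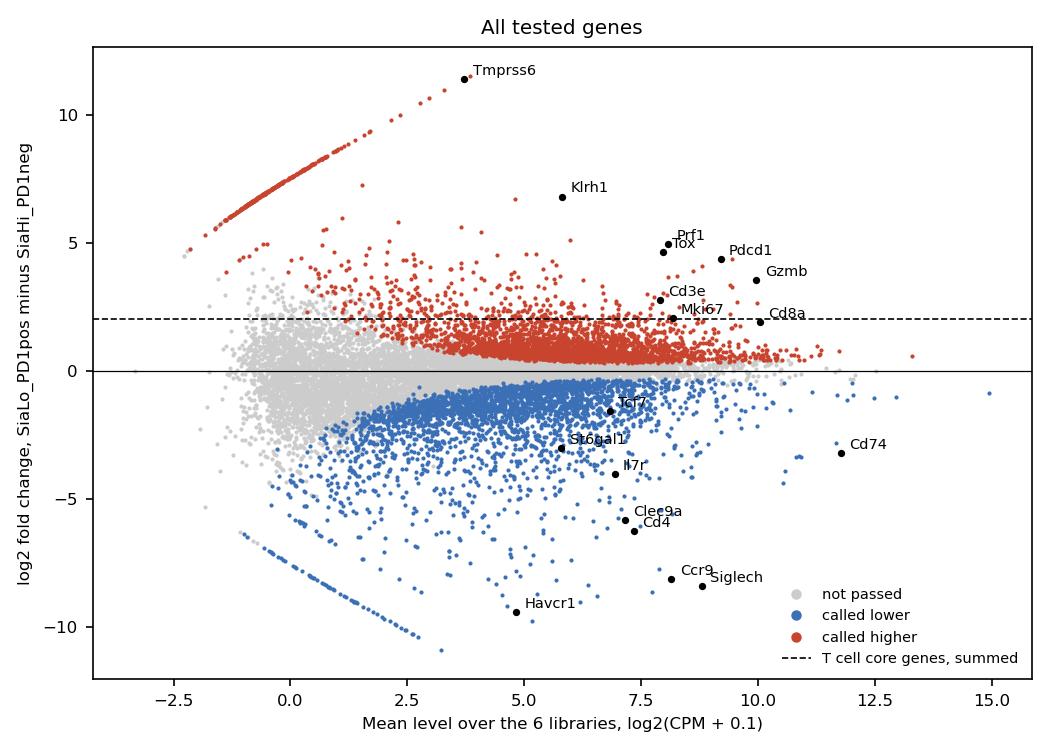
Log2 fold change of SiaLo_PD1pos minus SiaHi_PD1neg against mean level for the 15292 tested genes, 1 point per gene, coloured by call with TMM scaling. Pdcd1, Prf1 and Tox lie above the dashed line of the summed T cell core genes, which is about the 0 of the T cell core scale, and the points on the slanted edges are genes with no reads in 1 gate, whose fitted values are no measure of size.

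The 12 genes with the highest fold change, by the rule described under the processing, joined known genes of chronically stimulated T cells with genes better known from other organs. Prf1, which encodes the pore-forming protein perforin, stood at 19.6, 13.4 and 17.6 CPM in SiaHi_PD1neg and at 562, 550 and 455 CPM in SiaLo_PD1pos, 31.0-fold higher (log2 fold change 4.95, SE 0.17, adjusted p = 1.46e-09). Tox stood at 29.8, 9.47 and 18.6 CPM against 507, 500 and 445 CPM (log2 fold change 4.65, SE 0.31, adjusted p = 1.01e-07). For both genes every SiaLo_PD1pos library was far above every SiaHi_PD1neg library. Rgs16, a regulator that shortens G protein signals, rose from 82.1, 62.9 and 45.7 CPM to 1208, 1525 and 1230 CPM and was the most abundant of the 12 in SiaLo_PD1pos. Its relative Rgs8 stood at 0.364, 0 and 1.38 CPM against 56.3, 55.4 and 53.5 CPM. Klrh1, a lectin-like receptor of the NK gene complex, stood at 2.26, 0 and 0.589 CPM against 116, 123 and 93.7 CPM (log2 fold change 6.81, SE 0.53, adjusted p = 3.65e-07).

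Beside Pdcd1, given above, the other members of the 12 are better known for roles outside T cells. Tmprss6, a membrane protease known for iron control in the liver, had no read in the SiaHi_PD1neg libraries and 23.1, 23.4 and 31.8 CPM in SiaLo_PD1pos. Against a floor of 3 counts over the whole SiaHi_PD1neg group it was at least 325-fold higher. Tmprss6 passed the filter on low counts only through the PD-1-positive gates, so its direction was fixed by the filter. Slc17a6, a vesicular glutamate transporter of neurons, stood at 6.27, 2.46 and 0 CPM against 87.9, 68.1 and 62.9 CPM. Nrgn, which encodes the calmodulin-binding neuronal protein neurogranin, stood at 8.60, 0.820 and 0.687 CPM against 119, 132 and 116 CPM. Both were low or near 0 in every SiaHi_PD1neg library. Glp1r, the receptor for the gut hormone GLP-1, reached 18.3 to 30.4 CPM in SiaLo_PD1pos and at most 0.895 CPM in SiaHi_PD1neg. Gldc, an enzyme of glycine breakdown, reached 30.3 to 34.2 CPM against at most 2.11 CPM, and Smyd1, a muscle methyltransferase, 58.3 to 71.4 CPM against at most 3.57 CPM. The log2 fold changes of these fitted genes ran from 4.55 for Smyd1 to 5.60 for Glp1r, and the choice of the highest folds puts all 12 above the 4.02-fold of the T cell core. Klrh1, Rgs8, Slc17a6, Glp1r and Gldc each had a SiaHi_PD1neg library without reads, and Nrgn, at 0.687 CPM in replicate 3, lay there just below the level the filter asks for. These 6 genes could not pass the filter on low counts through that gate alone, so the filter favoured their direction.

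**Figure D3:**
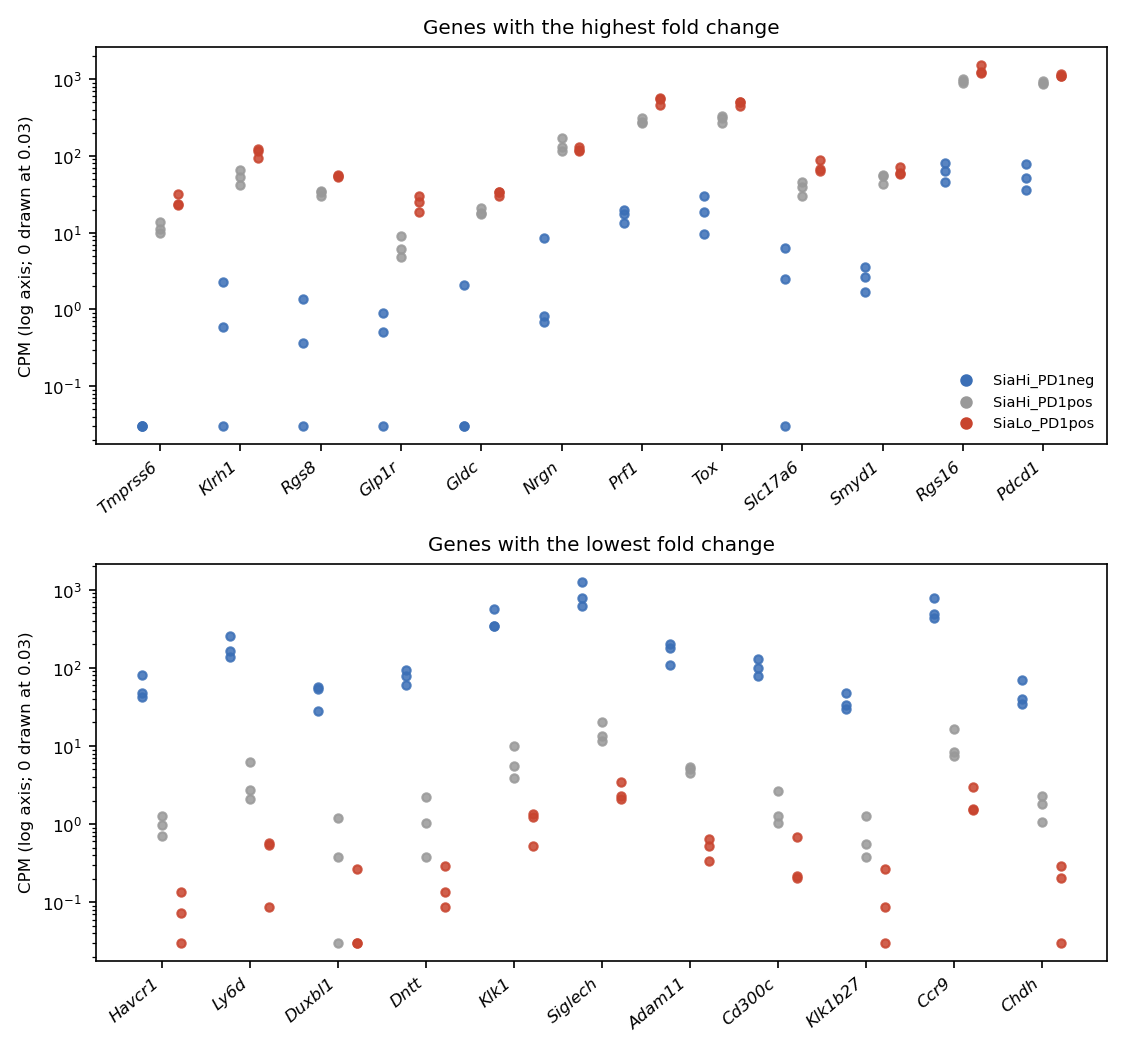
CPM in each of the 9 libraries (log axis, with 0 drawn at 0.03) for the 12 genes at the top and 11 of the 12 at the bottom of the order of fold changes. The rule took only genes whose red SiaLo_PD1pos and blue SiaHi_PD1neg points do not overlap. On the log axis the grey SiaHi_PD1pos points lie nearer to SiaLo_PD1pos for the higher and the lower genes alike.

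Cytotoxicity was the group with most members above the T cell core. Of 23 tested genes of killing, 18 were called higher and 2 lower, with a median log2 fold change of 1.65 against 0.01 over all tested genes, and 9 stayed higher with T cell core scaling. Those 9 were Prf1, the granzyme genes Gzmb, Gzmd, Gzme and Gzmk, the granule genes Nkg7 and Cst7, the death ligand gene Fasl and the interferon-γ gene Ifng. Gzmb, the protease that perforin lets into target cells, stood at 142, 177 and 160 CPM in SiaHi_PD1neg and at 1769, 2085 and 1679 CPM in SiaLo_PD1pos (log2 fold change 3.53, SE 0.17, adjusted p = 7.05e-09). Nkg7, a membrane protein of cytotoxic granules, stood at 109, 151 and 133 CPM against 1319, 1314 and 1157 CPM, 9.64-fold higher. Groups did not overlap in either gene. Fasl, whose product triggers death through the receptor Fas, was 11.9-fold higher, at 132 to 147 CPM against at most 12.5 CPM. Ifng was 14.9-fold higher, at 601 to 860 CPM against 31.2 to 60.0 CPM. Gzmd and Gzme, which lie in 1 cluster of near-identical granzyme genes and may share reads, had no read in SiaHi_PD1neg and at most 3.61 CPM in SiaLo_PD1pos. They passed the filter on low counts only through the PD-1-positive gates, so their place among the 18 and the 9 was fixed by the filter. Tnf, the gene of tumour necrosis factor, was lower in SiaLo_PD1pos at 48.6 to 63.6 CPM against 155 to 255 CPM (log2 fold change -1.88, SE 0.21, adjusted p = 8.44e-06), as was the lysosomal gene Lamp1.

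The promoters of 3 of these genes and of the dendritic gene Siglech are printed to show, beside genes that moved in opposite directions, the letters that 2 families of lymphocyte factors are known to read. The windows hold the 250 bases before the annotated start in RefSeq's GRCm38.p6. Capitals mark AGGTGT, the core letters of T-box factors such as T-bet, or TGTGGT, the core letters of RUNX factors, on either strand, so that ACCACA also marks a match of the RUNX letters.
Prf1, chr10:61297586-61297835, plus strand: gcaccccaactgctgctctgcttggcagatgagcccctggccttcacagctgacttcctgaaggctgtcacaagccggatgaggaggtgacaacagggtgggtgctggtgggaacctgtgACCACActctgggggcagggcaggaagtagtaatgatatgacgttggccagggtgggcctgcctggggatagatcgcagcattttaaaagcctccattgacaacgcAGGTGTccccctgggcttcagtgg
Gzmb, chr14:56262335-56262584, minus strand: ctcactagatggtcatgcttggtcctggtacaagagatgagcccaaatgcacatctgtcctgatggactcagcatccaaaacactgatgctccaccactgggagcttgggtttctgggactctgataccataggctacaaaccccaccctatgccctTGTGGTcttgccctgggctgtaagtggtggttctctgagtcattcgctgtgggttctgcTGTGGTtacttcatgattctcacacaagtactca
Nkg7, chr7:43436888-43437137, plus strand: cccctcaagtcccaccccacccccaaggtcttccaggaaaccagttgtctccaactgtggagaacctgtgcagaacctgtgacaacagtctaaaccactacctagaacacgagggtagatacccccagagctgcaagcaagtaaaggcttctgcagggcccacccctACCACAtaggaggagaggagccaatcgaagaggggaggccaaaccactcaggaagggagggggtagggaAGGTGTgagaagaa
Siglech, chr7:55767934-55768183, plus strand: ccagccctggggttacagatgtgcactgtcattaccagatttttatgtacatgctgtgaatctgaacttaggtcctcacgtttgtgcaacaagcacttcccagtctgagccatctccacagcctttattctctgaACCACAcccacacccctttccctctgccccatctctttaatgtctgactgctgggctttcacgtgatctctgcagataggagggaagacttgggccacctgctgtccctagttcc

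Every one of these windows held TGTGGT, and those of Prf1 and Nkg7 also held AGGTGT. The RUNX letters stood in 13 of the 22 cytotoxicity promoters in the table (59.1%), several of them neighbours in the granzyme cluster with similar sequence, in 14.2% of all 27025 promoters, and in 11.6% of those of genes called higher as of genes called lower. They stood in 19.9% of the promoters of genes higher with T cell core scaling and in 4 of the 15 on the plasmacytoid dendritic list (26.7%). AGGTGT stood in 27.3% of the cytotoxicity promoters and in 3241 of the 27025. The motifs can overlap where the last letters of one begin the other. A match says that the letters are present and nothing of a factor's binding.

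Most inhibitory receptors were higher in SiaLo_PD1pos. Of 18, 13 were called higher and 2 lower, with a median log2 fold change of 1.42, and Pdcd1, Ctla4 and Tigit stayed higher with T cell core scaling, on which 11 were lower. Tigit, a receptor that competes for ligands with the costimulator CD226, stood at 41.0, 42.2 and 47.5 CPM in SiaHi_PD1neg and at 373, 328 and 346 CPM in SiaLo_PD1pos (log2 fold change 3.00, SE 0.13, adjusted p = 3.8e-09). Ctla4, which takes CD28's ligands from antigen-presenting cells, was 5.32-fold higher, at 769 to 813 CPM against 141 to 155 CPM. Havcr2, which encodes TIM-3, was 3.81-fold higher with TMM scaling and, at -0.10, did not differ past the threshold with T cell core scaling. Lag3 was 2.89-fold higher with TMM scaling and lower with T cell core scaling. Btla, a receptor of resting lymphocytes, went the other way, at 159, 159 and 164 CPM in SiaHi_PD1neg and 27.4, 29.1 and 25.8 CPM in SiaLo_PD1pos. Lair1, a collagen receptor found also on myeloid cells, was 19.1-fold lower.

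Among 24 transcription factors of effector and exhausted T cells, 18 were called higher and 4 (Ikzf2, Zeb2, Egr2 and Egr3) lower (median log2 fold change 1.11), and Tox, Nr4a2, Tbx21 and Ikzf3 stayed higher with T cell core scaling, on which 16 were lower. Zeb2 is also on the plasmacytoid dendritic list. Tbx21, which encodes T-bet, stood at 26.5, 25.9 and 29.2 CPM in SiaHi_PD1neg and at 192, 181 and 181 CPM in SiaLo_PD1pos (log2 fold change 2.76, SE 0.12, adjusted p = 5.3e-09). Nr4a2, an orphan receptor induced by T cell receptor signals, was 6.75-fold higher, and Ikzf3, the lymphocyte factor Aiolos, 7.34-fold higher. For the 24 genes of T cell receptor signalling, 19 were higher and 2, Fyb among them, lower (median 1.18), and with T cell core scaling 4 were higher and 16 lower. Zap70, the kinase that binds the phosphorylated receptor chains, was 6.06-fold higher, at 351 to 376 CPM against 54.4 to 66.1 CPM, and the adaptor gene Sh2d2a was 10.1-fold higher. The call of Ikzf2 was lost without SiaHi_PD1neg replicates 2 or 3 or SiaLo_PD1pos replicates 1 or 2 (adjusted p up to 0.121), and that of Fyb without SiaHi_PD1neg replicate 2 or any 1 SiaLo_PD1pos library (up to 0.0969).

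Genes of naive, central and stem-like T cells formed the opposite pattern. Of 25 genes 16 were lower in SiaLo_PD1pos and 5 (Bach2, Bcl2, Foxo1, Ets1 and Cd27) higher, with a median log2 fold change of -1.54, and none was higher and 24 were lower with T cell core scaling. Ccr9, among the 16, is also on the plasmacytoid dendritic list. Il7r, the receptor chain for the survival cytokine IL-7, stood at 195, 259 and 238 CPM in SiaHi_PD1neg and at 14.8, 15.2 and 12.4 CPM in SiaLo_PD1pos, 16.3-fold lower (log2 fold change -4.03, SE 0.24, adjusted p = 4.76e-08). The groups were wide apart. Nsg2, a neuronal endosome gene that naive T cells also express, stood at 52.1, 54.7 and 52.0 CPM against 4.16, 2.96 and 4.93 CPM. Tcf7, the gene of the stem-like T cell factor TCF-1, was 2.97-fold lower, at 46.2 to 68.2 CPM against 164 to 175 CPM. Ccr7 and Dapl1 were called lower at adjusted p = 0.0358 and 0.036, and both calls were lost without single libraries, with adjusted p up to 0.22 and 0.153. For Ccr7 these were SiaHi_PD1neg replicate 3 and SiaLo_PD1pos replicates 1 and 2, with values of 155, 167 and 257 CPM against 104, 101 and 163 CPM. For Dapl1 they were all libraries but SiaHi_PD1neg replicate 3. The call of Bach2 was lost without replicates 1 or 3 of either gate (adjusted p up to 0.142), and that of Foxo1 without SiaLo_PD1pos replicate 3 (0.0529).

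Receptors that guide T cells into tissues divided. Of 21, 9 were higher and 8 lower, and Cxcr6, Ccr8 and Cx3cr1 stayed higher with T cell core scaling, on which 17 were lower. On that scale 81.9% of all tested genes were lower, so the last count sets the list little apart. Cxcr6, the receptor of CXCL16, stood at 52.6, 50.7 and 29.4 CPM in SiaHi_PD1neg and at 628, 575 and 514 CPM in SiaLo_PD1pos (log2 fold change 3.69, SE 0.21, adjusted p = 3.12e-08). Itgae, which encodes the CD103 chain of an E-cadherin-binding integrin of resident T cells and of some dendritic cells, stood at 147, 103 and 139 CPM against 2.75, 1.44 and 3.03 CPM, 53.9-fold lower. Of 16 chemokine and cytokine genes 8 were higher and 1 lower (median 0.93), and Ccl1, Ccl5, Csf1 and Il21 stayed higher with T cell core scaling, on which 9 were lower. Il21 had no read in SiaHi_PD1neg and passed the filter only through the other gates. Ccl5, a chemokine stored in memory and effector T cells, was 6.44-fold higher at 1182 to 1357 CPM against 177 to 214 CPM. Il2, the T cell growth factor gene, was the gene called lower, at 4.37, 8.87 and 1.38 CPM against 0.0671, 0.217 and 0.433 CPM.

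Of 15 lectin-like receptors shared with NK cells 6 were higher and 8 lower (median -2.66). Klrc1, which encodes the inhibitory receptor NKG2A, stood at 45.0, 58.4 and 43.4 CPM in SiaHi_PD1neg and at 877, 917 and 743 CPM in SiaLo_PD1pos (log2 fold change 4.11, SE 0.20, adjusted p = 8.3e-09). With Klre1 and Klri2 it stayed higher with T cell core scaling, on which 10 were lower. Klra7, a Ly49 receptor gene whose reads may be shared with its close relatives, was 18.7-fold lower. In the list of 12 NK cell markers 5 were called lower and 2 higher, where 18.9% and 20.5% of all tested genes were. Its sum was 237 to 252 CPM in SiaLo_PD1pos against 590 to 809 CPM in SiaHi_PD1neg. Of the mean sum of 673 CPM in SiaHi_PD1neg, Tyrobp held 361 CPM and Fcer1g 202 CPM. In SiaLo_PD1pos these 2 genes averaged 31.2 and 72.9 CPM, so the difference in the sum rested on them. The part of NK cell RNA in these values was not tested. Of 15 costimulatory genes 9 were higher and 3 (Cd7, Cd40lg and Slamf7) lower (median 1.48), and only Tnfrsf9 stayed higher with T cell core scaling, on which 10 were lower. Tnfrsf9, the activation receptor 4-1BB, stood at 47.2, 33.0 and 39.9 CPM against 472, 508 and 530 CPM (log2 fold change 3.65, SE 0.17, adjusted p = 7.04e-09). Of 22 interleukin receptor genes 10 were higher and 7 lower (median 0.35), and Il2rb, Il18r1 and Il18rap stayed higher with T cell core scaling, on which 17 were lower. That last count, too, is near the 81.9% of all tested genes lower on that scale. Il18rap, a chain of the IL-18 receptor, was 7.81-fold higher at 409 to 514 CPM against 53.3 to 65.1 CPM.

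Cell division genes were higher in SiaLo_PD1pos with TMM scaling, and most of them were not with T cell core scaling. All 30 S phase genes and all 30 genes of G2 and mitosis were called higher with TMM scaling, with medians of 1.78 and 1.76, and on the T cell core scale 1 and 0 were higher and 12 and 10 lower. Mki67, the proliferation marker Ki-67, stood at 112, 102 and 123 CPM in SiaHi_PD1neg and at 453, 489 and 452 CPM in SiaLo_PD1pos, 4.14-fold higher. Its log2 fold change with T cell core scaling was 0.04, which did not pass the threshold. Top2a, a topoisomerase of dividing cells, was 4.08-fold higher, and Dut, which keeps uracil out of DNA, was the S phase gene that stayed higher on the T cell core scale. Of 77 ribosomal protein genes 33 were higher and 2 lower (median 0.43), a count that was 19 without SiaHi_PD1neg replicate 3 or SiaLo_PD1pos replicate 2 and 60 without SiaHi_PD1pos replicate 2, and none was higher on the T cell core scale. Of 40 nuclear genes of oxidative phosphorylation 4 (Atp5j, Ndufb10, Atp5a1 and Cox5a) were higher, against 20.5% of all tested genes. None stayed higher on the T cell core scale. The calls of Atp5a1 and Cox5a were lost without SiaLo_PD1pos replicates 1 or 2 (adjusted p up to 0.0587 and 0.0915), and that of Cox5a also without SiaHi_PD1neg replicate 3. The count was 2 without SiaLo_PD1pos replicates 1 or 2, 8 without SiaHi_PD1neg replicate 1, 6 without replicates 2 of SiaHi_PD1neg or 3 of SiaHi_PD1pos, and 12 without SiaHi_PD1pos replicate 2.

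Most type I interferon response genes were lower in SiaLo_PD1pos, while other response lists held calls in both directions, to be read against the 18.9% lower and 20.5% higher of all tested genes. Of 34 type I interferon response genes 27 were lower and 1, Isg20, higher, with a median of -1.07 that T cell core scaling moved to -3.07. Ifi44, an interferon-induced gene, stood at 62.2, 77.3 and 85.5 CPM in SiaHi_PD1neg and at 7.78, 7.94 and 9.77 CPM in SiaLo_PD1pos (log2 fold change -3.14, SE 0.24, adjusted p = 3.01e-07). Irf7, an interferon-regulating factor that plasmacytoid dendritic cells hold at high levels, stood at 418 to 600 CPM against 132 to 136 CPM. Irf7 is among several of the lower interferon genes that are counted on the plasmacytoid dendritic list as well. Of 28 immediate early and heat shock genes 11 were lower and 7 higher (median -0.23). Fos, a subunit of the factor AP-1, stood at 1276, 1613 and 1070 CPM against 269, 279 and 291 CPM. Dusp4, a phosphatase that damps MAP kinase signals, was 8.25-fold higher and the 1 gene of that list higher on the T cell core scale. Of 25 genes of cholesterol and fatty acid synthesis 12 were lower and 1, Ebp, higher, with 7 lower without SiaLo_PD1pos replicate 2. Fdps, which makes the precursor farnesyl pyrophosphate, was 2.89-fold lower. Of 12 mitochondrial mRNAs 10 were lower, and of 18 hypoxia genes 7 were lower and 2, Egln1 and Ddit4, higher (4 without SiaHi_PD1pos replicate 2), with sums that overlapped between the gates at 934 to 1046 CPM in SiaLo_PD1pos and 893 to 1030 CPM in SiaHi_PD1neg. Of 18 MHC class I presentation genes Tapbp, Psme1 and H2-T23 were lower and Nlrc5 and Erap1 higher, and calls other than that of Tapbp were lost without SiaLo_PD1pos replicate 1, at adjusted p up to 0.115 for Erap1, 0.186 for H2-T23, 0.111 for Nlrc5 and 0.168 for Psme1. The latter 3 were lost as well without SiaLo_PD1pos replicates 2 or 3 or SiaHi_PD1neg replicate 2, Nlrc5 and Psme1 without SiaHi_PD1neg replicate 1, and Psme1 without SiaHi_PD1pos replicate 1. The calls of Isg20 (up to 0.0834) and Ebp (up to 0.0956) were lost without replicates 1 or 3 of either gate, and that of Isg20 without SiaLo_PD1pos replicate 2. No gene of the interferon, synthesis, mitochondrial, hypoxia or MHC class I lists was higher on the T cell core scale.

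Among genes that write sialic acids, the α2,6 sialyltransferases did not move as a group. Of 5 tested, only St6gal1 was lower and 2 were higher. Those 2 calls, for St6galnac3 and St6galnac4, which act on O-glycans or glycolipids, were lost without single libraries. Without SiaHi_PD1neg replicate 3 and without SiaLo_PD1pos replicates 1 or 2 both were lost, and that of St6galnac4 was lost also without SiaHi_PD1neg replicate 1 or SiaLo_PD1pos replicate 3, with adjusted p up to 0.0596 and 0.0915. Neither was higher with T cell core scaling. Of the 9 tested sialyltransferases of other linkages 5 were lower and none higher. St8sia1, which adds a second sialic acid to the ganglioside GM3, stood at 14.9, 21.3 and 28.5 CPM in SiaHi_PD1neg and at 0.268, 0.578 and 0.433 CPM in SiaLo_PD1pos (log2 fold change -5.64, SE 0.44, adjusted p = 3.38e-07). St3gal5, which makes GM3, was 8.31-fold lower, and St8sia4, which makes polysialic acid, 4.21-fold lower at 75.6 to 101 CPM against 295 to 446 CPM. Of 14 genes that make, move or remove sialic acid 3 (Cmah, Gne and Renbp) were lower and 1 higher. Over all tested genes 18.9% were lower and 20.5% higher, so these counts set the list little apart. Cmah, the hydroxylase that turns Neu5Ac into Neu5Gc in mice, stood at 107, 243 and 164 CPM against 25.8, 20.2 and 25.5 CPM. Nans, the synthase of Neu5Ac, was 1.95-fold higher with TMM scaling and lower with T cell core scaling.

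Of 19 genes of N-glycan trimming and branching 8 were lower and 4 (Man1a, Man2a1, B4galt1 and B4galt5) higher, none of the 4 with T cell core scaling. The all-gene shares for this and the next lists were 18.9% lower and 20.5% higher. The call of Man1a was lost without SiaHi_PD1neg replicate 2 or SiaLo_PD1pos replicates 1 or 3 (adjusted p up to 0.13). Mgat1, which starts complex N-glycans, was 2.33-fold lower. Among 14 O-glycan genes 6 were higher and 2 lower. Galnt3, which starts O-glycans by adding GalNAc to proteins, stood at 9.11, 6.94 and 0 CPM in SiaHi_PD1neg and at 98.6, 96.0 and 97.2 CPM in SiaLo_PD1pos (log2 fold change 4.13, SE 0.59, adjusted p = 9.46e-05), and it was the only gene of that list higher on the T cell core scale. With 0 CPM in a SiaHi_PD1neg library, Galnt3 could not pass the filter on low counts through that gate alone. Gcnt2, which branches poly-N-acetyllactosamine chains, was 9.64-fold lower. Among 13 sialic acid-binding Siglecs and galactose-binding galectins 6 were lower and 1 higher. Siglech, among the lower, is also on the plasmacytoid dendritic list. The higher gene was Lgals1, galectin-1, at 925 to 1176 CPM against 434 to 536 CPM, and it was lower with T cell core scaling. Cd33, a Siglec of myeloid cells, stood at 108 to 156 CPM in SiaHi_PD1neg against 3.25 to 4.23 CPM in SiaLo_PD1pos. The dendritic cell sums differed between the gates beside all of these glycan genes, and their part was not tested.

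**Figure D4:**
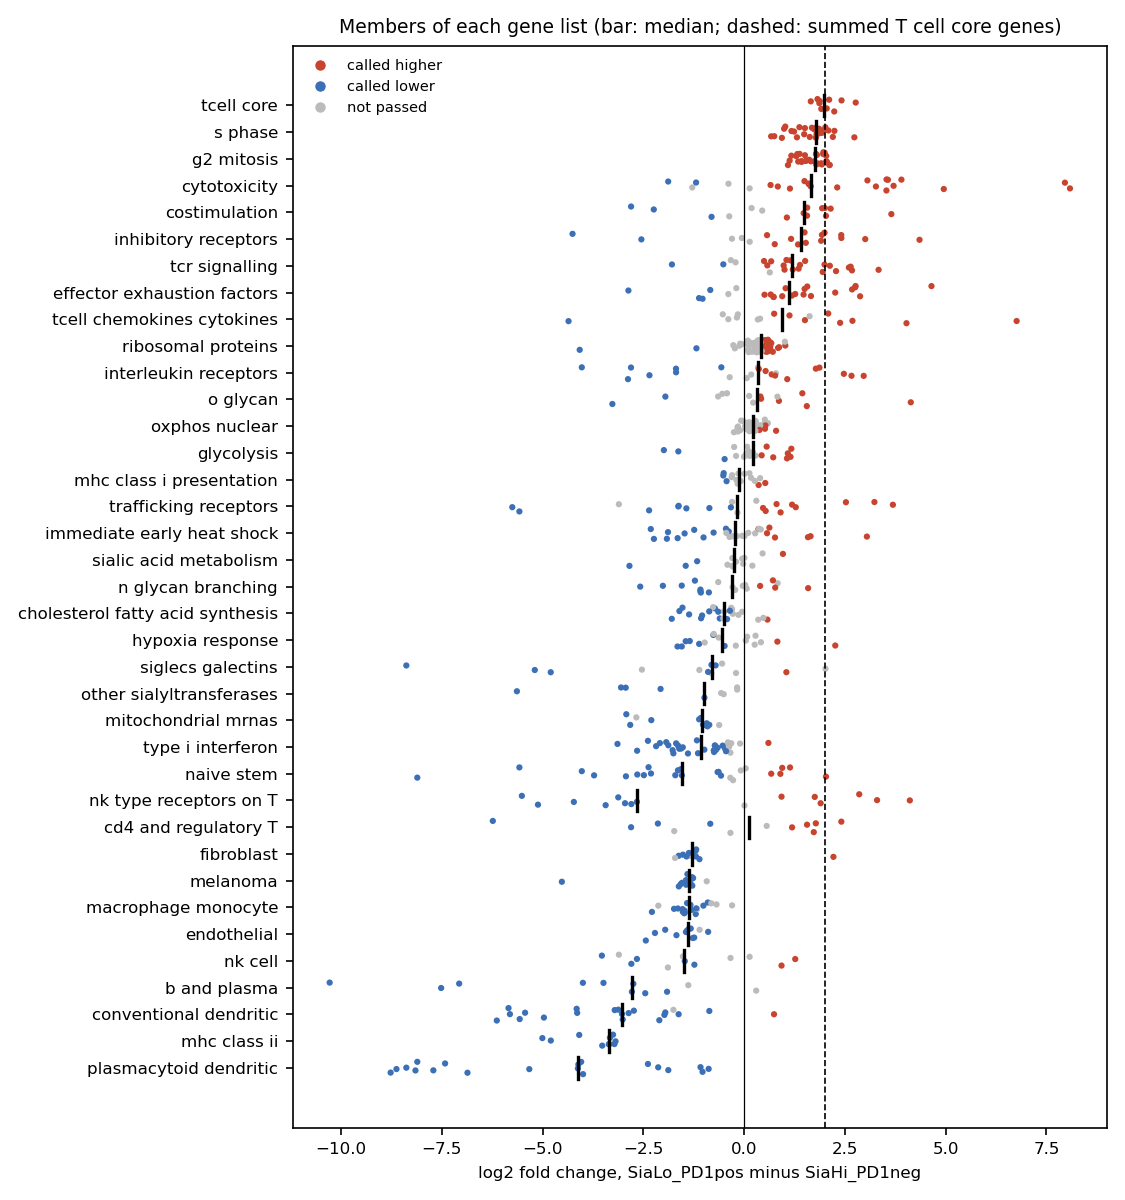
Log2 fold change of SiaLo_PD1pos minus SiaHi_PD1neg with TMM scaling for every tested member of each list with at least 8 tested members, coloured by call, with a bar at the list's median and a dashed line at the summed T cell core. The medians of the S phase list (1.78) and of the cytotoxicity list (1.65) lie right of 0, with 1 and 9 members higher on the T cell core scale, and that of the plasmacytoid dendritic list (-4.12) lies far left.

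Of the 12 genes with the lowest fold change 5 were on the plasmacytoid dendritic cell list. Siglech, a receptor that defines these cells in mice, stood at 611, 1265 and 790 CPM in SiaHi_PD1neg and at 3.49, 2.31 and 2.08 CPM in SiaLo_PD1pos, 333-fold lower (log2 fold change -8.38, SE 0.36, adjusted p = 4.23e-09). Ccr9, a homing receptor for the gut that these cells also carry, stood at 428, 781 and 488 CPM against 2.95, 1.52 and 1.56 CPM. SiaHi_PD1neg replicate 2 was the highest library for both. The kallikrein gene Klk1, the surface gene Ly6d and the receptor gene Cd300c, also on the plasmacytoid list, were 395-fold, 437-fold and 285-fold lower. Dntt, the enzyme that adds bases at receptor gene joints in developing lymphocytes, stood at 60.2, 93.4 and 78.1 CPM against 0.134, 0.289 and 0.0865 CPM. Havcr1, which encodes TIM-1, had 2145 counts over the 3 SiaHi_PD1neg libraries and 3 over those of SiaLo_PD1pos, a ratio of 773 with a 95% exact Poisson interval of 264 to 3746 for counting error alone. Adam11, Klk1b27, Chdh and Duxbl1 were 262-fold to 426-fold lower. Havcr1, Klk1b27, Chdh and Duxbl1 each had a SiaLo_PD1pos library without reads. Dntt, Ly6d, Adam11 and Cd300c reached at most 0.692 CPM in any SiaLo_PD1pos library, and Klk1 stood at 0.519 CPM in replicate 3, below the level the filter asks for. None of these 9 genes could pass the filter on low counts through that gate alone, so the filter favoured their direction. Duxbl1 had 4 counts over the 3 SiaLo_PD1pos libraries, Klk1b27 5 and Chdh 7, so their folds are loose.

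All 19 plasmacytoid markers, all 10 MHC class II genes and 19 of 21 conventional dendritic markers were called lower in SiaLo_PD1pos, with median log2 fold changes of -4.12, -3.35 and -3.03. Of the conventional dendritic markers 1 was called higher and 1 did not pass. The count of higher markers fell to 0 when single libraries were left out, and all 21 were lower with T cell core scaling. Clec9a, a receptor for dead cells on type 1 conventional dendritic cells, stood at 271, 296 and 272 CPM in SiaHi_PD1neg and at 6.24, 4.04 and 4.58 CPM in SiaLo_PD1pos (log2 fold change -5.81, SE 0.22, adjusted p = 2e-09). Flt3, the growth factor receptor of dendritic cells, was 70.4-fold lower. H2-Aa, a chain of MHC class II, was 10.3-fold lower at 310 to 402 CPM against 3302 to 3867 CPM. Cd74, the invariant chain of that complex, was still at 597 to 780 CPM in SiaLo_PD1pos. Sums of the conventional dendritic markers spanned 2958 to 3281 CPM in the 3 SiaHi_PD1neg libraries, while the plasmacytoid sum of replicate 2 was above the others.

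Most tested markers of several other cell types were lower in SiaLo_PD1pos too. The B and plasma cell list had 9 of 11 lower, with sums of 130 to 137 CPM against 774 to 1243 CPM. It lists 16 genes, of which 5 had no read in SiaLo_PD1pos, and Ighm held 714 CPM of the mean SiaHi_PD1neg sum of 1077 CPM. Mzb1 and Blk, among the 9, had no read in SiaLo_PD1pos and passed the filter only through SiaHi_PD1neg, so their direction was fixed. The macrophage and monocyte list had 15 of 20 lower, with sums of 1605 to 2005 CPM against 4250 to 5210 CPM. The melanoma list had 14 of 15 lower, with sums of 1914 to 3850 CPM against 4642 to 9584 CPM. That count fell to as few as 10 when single libraries were left out. Tyrp1, a pigment enzyme, stood at 3053, 1523 and 2746 CPM in SiaHi_PD1neg and 737, 606 and 1172 CPM in SiaLo_PD1pos (log2 fold change -1.54, SE 0.26, adjusted p = 0.000359). Within SiaHi_PD1neg, replicate 2 had the lowest Tyrp1 level and the highest plasmacytoid sum. Endothelial genes were lower in 11 of 12, in 6 without SiaHi_PD1neg replicate 1. Fibroblast genes were lower in 9 of 12, in as few as 7 when single libraries were left out. The 1 higher was Thy1, which T cells also express and which did not pass with T cell core scaling. Fibroblast sums, Thy1 included, overlapped between the gates, at 1464 to 1840 CPM in SiaLo_PD1pos and 1251 to 1880 CPM in SiaHi_PD1neg. Of 12 markers of CD4 and regulatory T cells 5 were higher and 4 lower, Cd4 and Foxp3 among the lower and Ctla4 and Il2ra among the higher, and Ctla4 alone was higher with T cell core scaling. Among 6 γδ and innate T cell genes Trdc, Blk and Scart2 were lower, the last not without SiaHi_PD1neg replicate 3 or SiaLo_PD1pos replicates 2 or 3 (adjusted p up to 0.0881). Of 5 neutrophil genes Csf3r was lower and Ltf, which encodes the iron-binding protein lactoferrin, higher. Ltf had no read in SiaHi_PD1neg and 8.58, 14.3 and 6.83 CPM in SiaLo_PD1pos, at least 123-fold more. Ltf passed the filter on low counts only through the PD-1-positive gates, so its direction was fixed by the filter. Over the SiaLo_PD1pos libraries Blk had no read and Scart2 had 2. Both passed the filter only through SiaHi_PD1neg, so their direction was fixed by the filter. Of 3 red cell and platelet genes Pf4 was lower, a call lost without SiaLo_PD1pos replicate 2 (adjusted p = 0.0591), and of 4 mast cell and basophil genes none passed.

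Levels in the SiaHi_PD1pos gate are set beside those of the compared gates as values only, since its comparisons share libraries with this one. Pdcd1 stood at 892, 864 and 939 CPM there, near SiaLo_PD1pos. Tox stood at 334, 265 and 307 CPM and Prf1 at 275, 308 and 269 CPM, each between the compared gates. Klrc1 stood at 508, 767 and 509 CPM, and its replicate 2 lay above the lowest SiaLo_PD1pos library. St6gal1 stood at 55.8, 63.5 and 72.2 CPM, also between them. For other genes the SiaHi_PD1pos gate was the highest. Xcl1, a chemokine that draws type 1 dendritic cells, stood at 534, 937 and 449 CPM there, against 59.6, 55.7 and 79.7 CPM in SiaHi_PD1neg and 312, 264 and 251 CPM in SiaLo_PD1pos. Nrn1, which encodes the neuronal protein neuritin, stood at 84.96, 76.4 and 60.3 CPM, against 16.5 to 30.4 CPM in SiaLo_PD1pos and at most 2.98 CPM in SiaHi_PD1neg. Tcf7 at 205, 167 and 211 CPM overlapped SiaHi_PD1neg, and Il7r at 39.8, 36.5 and 69.8 CPM was far below it. The T cell core summed to 5645 to 7316 CPM there, over the range of SiaLo_PD1pos.

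**Figure D5:**
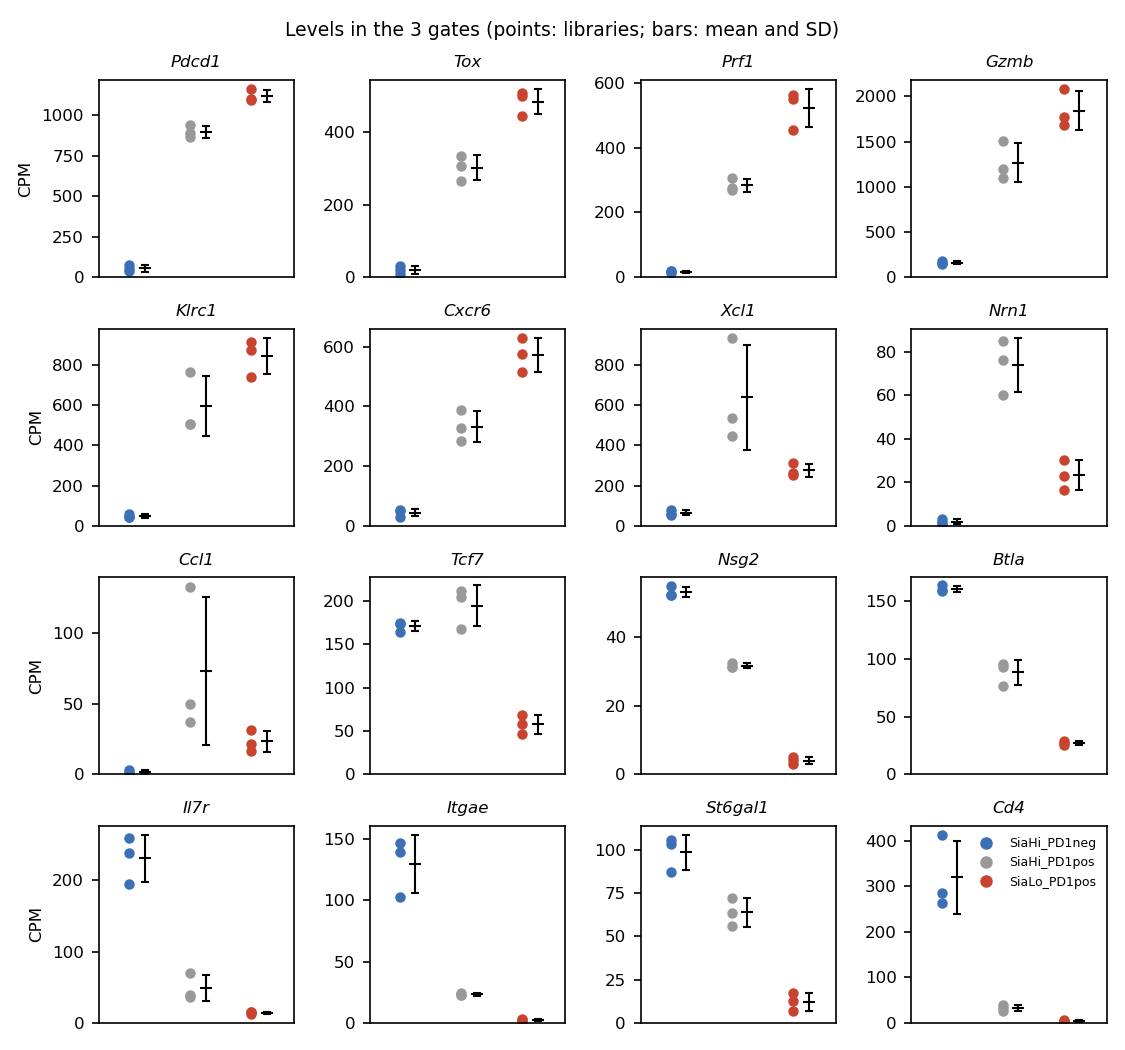
CPM in each library for 16 genes in the 3 gates (linear axes from 0), with the mean and SD of 3 libraries beside the points. Pdcd1 was near its SiaLo_PD1pos level in SiaHi_PD1pos, Prf1 and Tox lay in between, and Xcl1 and Nrn1 were highest in SiaHi_PD1pos.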

How the data were processed

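The deposited table held counts, whole reads per gene for 56860 genes in 9 libraries. Per the submitters' processing notes, reads were handled with Trim Galore 0.6.5, STAR 2.7.6a and featureCounts 1.6.3 on GRCm38. The sources used here do not give the annotation release, the strand setting or the treatment of reads with several matches. Of 49099 genes shared with a GRCm38 annotation 2.74% had the same start and end, so the build behind the table's coordinates is not known and none are printed. Promoters came from RefSeq (GRCm38.p6), 1 per gene.

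Genes passing filterByExpr were tested with edgeR 4.0.16 (limma 3.58.1, R 4.3.3) in 1 fit of 9 libraries, with TMM factors of 0.928 to 1.05, robust quasi-likelihood dispersions, 6 residual degrees of freedom and no block. The procedure was tested on simulated data. A fold is 2 raised to the fitted log2 fold change. Read counts carry no molecular identifiers, and floors and intervals cover counting error only. Replicates spread more than sampling noise, so none was taken as a library deposited again. T cell core scaling and the other alternatives (DESeq2 1.42.0 and its size factors, no composition scaling, other filters, limma-voom with quality weights, 6 libraries alone, a replicate block, a threshold of 2-fold, receptor, immunoglobulin and mitochondrial genes left out, single libraries left out) were listed before fitting. Scaling to the CD3 chains alone was chosen after seeing the data.

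Members and lists were chosen with earlier results of these data known. The named-gene rule took the sorted genes, the 12 highest and 12 lowest fold changes among called genes without overlap and with at least 20 CPM in the higher gate (gene models, pseudogenes and receptor segments left out), up to 4 members per list by adjusted p, and the most abundant genes; not all are described, and a few are left out of the report. B4galt1, Bach2, Bcl2, Ccl1, Ccr7, Cd40lg, Cst7, Cx3cr1, Dapl1, Ebp, Egr2, Egr3, Ets1, Foxo1, Foxp3, Fyb, Galnt3, Gzmd, Gzme, Gzmk, Havcr2, Ifng, Ikzf2, Il2, Il21, Isg20, Lag3, Lair1, Lamp1, Man1a, Man2a1, Mki67, Nrn1, Psme1, Slamf7, Tcf7, Tnf, Zeb2 and the rest of the T cell core were named after their values were seen.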

Additional observations from a re-analysis of the deposited data

How the results depend on the processing

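Scaling decided the split of calls. With T cell core scaling 281 genes were higher and 12531 lower, and with scaling to the CD3 chains alone, which summed 4.90-fold higher in SiaLo_PD1pos, 230 were higher and 12929 lower, with an all-gene median of -2.28. A test against a 2-fold change called 722 higher and 1074 lower. In the other alternatives that kept all libraries the counts stayed within 1.5 times, at 2419 (stricter filter) to 3530 (no filter) higher and 2742 (no filter) to 3392 (DESeq2) lower. Leaving out single libraries gave 2442 to 3662 higher and 2016 to 2956 lower, and reversed no named gene. Correlations of deviations from gate means were -0.0109, 0.0536 and 0.0453 for libraries with the same replicate number. For different numbers they ran from -0.0798 to 0.0354. With 3 libraries per gate, values this small cannot settle whether the labels' replicate numbers pair the libraries. With the replicate block 3273 genes were higher and 2832 lower, and Bach2 alone of the named genes lost its call.

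Only scaling reversed named genes, for log2 fold changes near or under that of the T cell core. Cd3d, Cd8a, Cd8b1, Lck and Trac belong to the core and Cd3d and Cd247 to the CD3 chains. Their values lie around 0 by construction where they set the scaling. With T cell core and CD3 chain scaling, in that order, the values were -1.63 and -1.91 for Atp5a1, -1.21 and -1.50 for Atp5j, -1.29 and -1.58 for B4galt1, -0.41 and -0.70 for B4galt5, -1.04 and -1.33 for Bach2, -1.34 and -1.62 for Bcl2, -0.19 and -0.48 for Cd3d, -0.09 and -0.38 for Cd8a, -0.35 and -0.64 for Cd8b1, -1.47 and -1.76 for Cox5a, -1.42 and -1.71 for Ebp, -1.18 and -1.46 for Egln1, -1.65 and -1.93 for Erap1, -0.87 and -1.16 for Ets1, -1.10 and -1.39 for Foxo1, -0.10 and -0.38 for Havcr2, -0.23 and -0.52 for Il2ra, -1.40 and -1.68 for Isg20, -0.47 and -0.77 for Lag3, -0.14 and -0.43 for Lck, -0.96 and -1.25 for Lgals1, -1.61 and -1.89 for Man1a, -1.23 and -1.52 for Man2a1, -1.05 and -1.33 for Nans, -1.49 and -1.78 for Ndufb10, -1.48 and -1.78 for Nlrc5, -1.53 and -1.82 for St6galnac4, -0.14 and -0.42 for Trac. With CD3 chain scaling alone these also reversed: Cd247 (-0.24), Cd27 (-0.28), Ddit4 (-0.00), Mki67 (-0.25), Thy1 (-0.07), Top2a (-0.27), Trbc1 (-0.17), Trbc2 (-0.07), Xcl1 (-0.22). Of the 281 genes above, 230 stayed higher with it. Ctla4, Zap70, Nr4a2, Il2rb, Il18r1, Csf1, Cx3cr1 and Cd3g lost their calls, while the 9 cytotoxicity genes kept them. The calls of Ccl1, Il21, Ccr7, Dapl1, Bach2 and Foxo1 were lost with limma-voom. Genes with few counts in 1 gate have sizes set by that depth.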
